A study of Mus musculus with 24 samples.

Results

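The genes described here encode the machinery that builds and gates the cilium: the intraflagellar transport (IFT) complexes, the BBSome with its helpers, and the transition zone. The 44 members were taken by gene symbol, on the autosomes and the X chromosome, from the deposited table of 45594 genes. All 44 were found, and all passed the filter on low counts that left 21858 genes to test. They comprise 10 BBS genes, 16 IFT genes, 13 transition zone genes, 3 kinesin motor genes and 2 ARL GTPase genes.

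The light-sensing outer segment of a photoreceptor is a modified primary cilium, joined to the cell body by a connecting cilium that corresponds to the transition zone of other cilia. IFT-B particles, pulled by kinesin, carry cargo towards the tip, and IFT-A particles with dynein return it. The BBSome is a coat-like complex that rides on IFT particles and removes membrane proteins from the cilium, and the MKS and NPHP modules of the transition zone form the gate at its base. Mutations in genes of each of these classes cause retinal degeneration, alone or as part of syndromes such as Bardet-Biedl, Joubert and Meckel syndromes.

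Whole retina of C57/Bl6N mice was profiled by RNA sequencing on 4 embryonic days (E11, E12, E14 and E16), on the day of birth (P0), in the first postnatal week (P2, P4 and P6) and later (P10, P14, P21 and P28), with 2 libraries at each of the 12 ages and 24 in all. No treatment or genetic change is named for any group. PolyA libraries of E11 and E12 used an RNA input of 100 ng and those of all other ages 1000 ng, so RNA input and age cannot be told apart for those stages. The labels do not say whether the libraries of an age came from separate animals, so p-values measure only the spread between these samples, which may be technical.

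Library totals ran from 24567532 to 35898879 estimated counts. The summed level of 10 cell cycle genes was 3040 to 4070 counts scaled to library size (CPM) up to E16 and 88.1 to 101 CPM from P14 on. The sum of 11 lens genes was 2560 to 3330 CPM in E11 replicate 1, E12 replicate 2 and E14 replicate 2, and 2.68 to 243 CPM in the other 21 libraries. The sum of 9 red cell genes reached 8540 CPM at E11, and that of 13 genes of motile cilia stayed between 50.3 and 134 CPM. Single genes of motile cilia moved in opposite directions, with log2 changes from E16 to P28 between -6.35 and 3.94. The sum of 8 mesenchyme genes lay between 16.7 and 243 CPM. In whole tissue, fewer cells of a type and less RNA per cell cannot be told apart.

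The 10 BBS genes, the 16 IFT genes and the 13 transition zone genes followed different courses through retinal development. Most BBS genes were several-fold higher in the mature than in the embryonic retina. IFT genes ranged at most 2.95-fold between their lowest and highest stage, some being higher and some lower at P28 than at E16. Transition zone genes were divided between large and small changes. Calls needed a Benjamini-Hochberg adjusted p under 0.05 from an edgeR quasi-likelihood test together with a 2-fold change, and "rose" and "higher" are used of genes past the adjusted p. In the test over all 12 stages, 32 of 44 members (72.7%) were called, against 77.3% of all genes tested. All 44 members passed the adjusted p alone, against 88.2% of all genes.

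The groups differed in the size of their change with age. All 10 BBS genes were called over the stages, with a median range of 6.14-fold between the lowest and highest stage. For the IFT genes it was 8 of 16, with a median range of 1.97-fold, and for the transition zone genes 9 of 13, with 2.12-fold. The median over all genes tested was 4.64-fold, so the BBS genes lay above it and the other 2 groups below it. These group counts and medians are descriptions, without a test between groups.

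**Figure D1:**
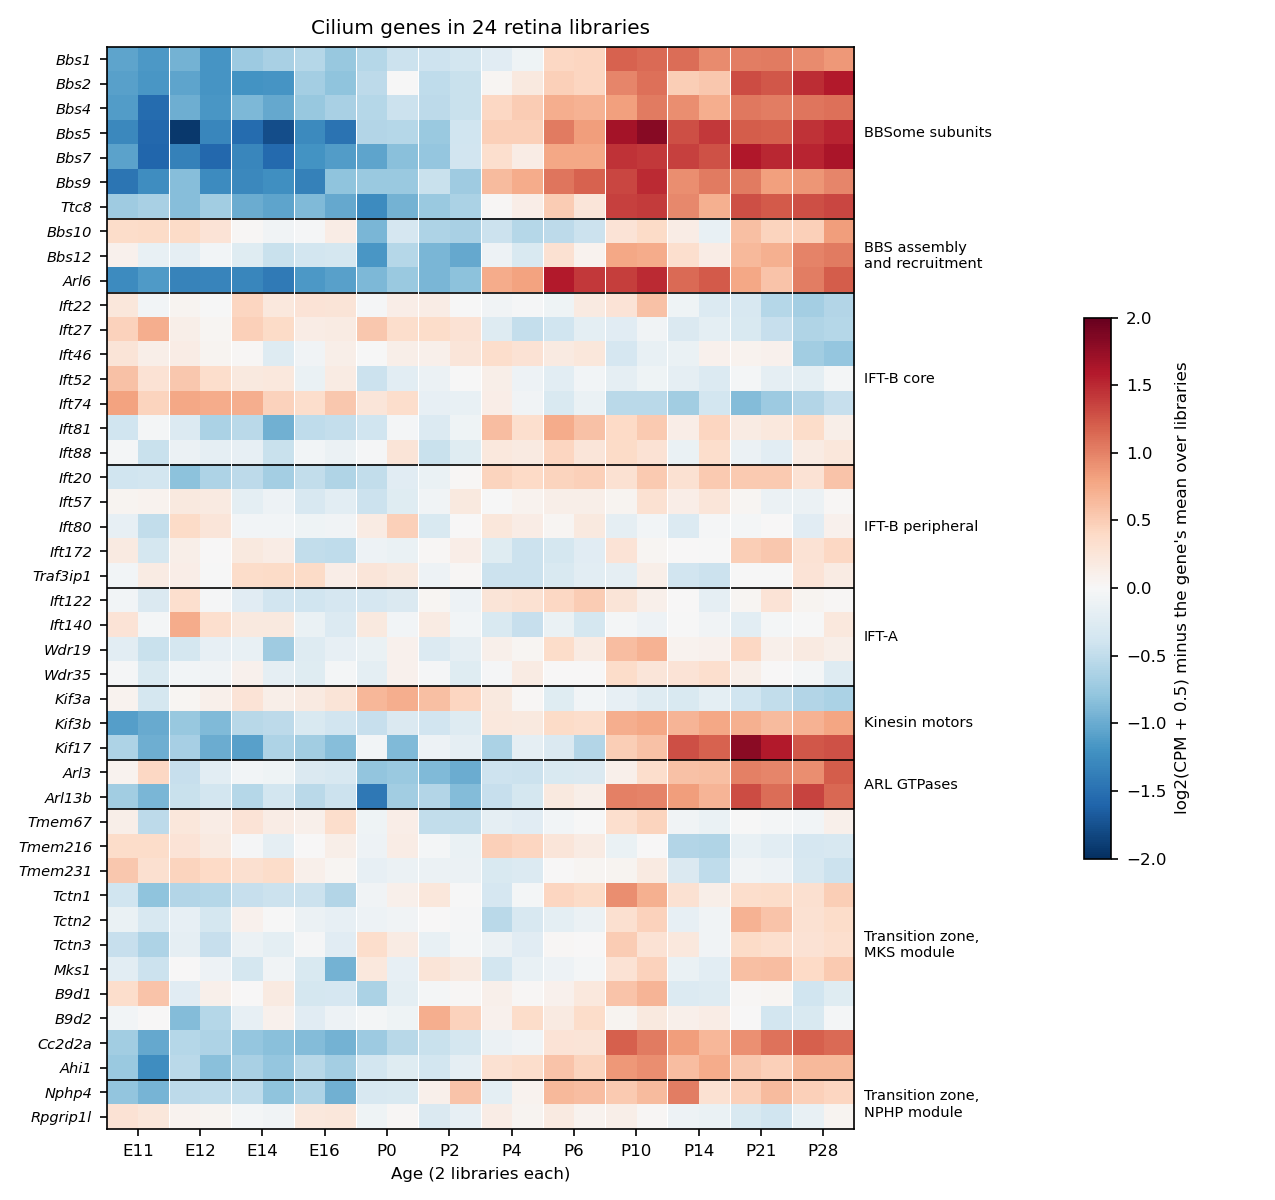
Levels of the 44 genes (rows, by functional group) in the 24 libraries (columns, 2 per age), as log2(CPM + 0.5) minus the gene's mean over libraries; red is above and blue below that mean. BBSome subunits and Arl6 run from blue before birth to red from P6 on, whereas most IFT rows stay pale throughout.

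More members were called between E16 and P6, the days around birth when rods are made and begin to differentiate, than in the other windows between successive ages. From E11 to E16 no member was called in either direction, whereas 13.6% of all genes tested were called higher and 9.11% lower. By adjusted p alone, 8 members were higher at E16 and 8 lower, against 22.6% and 23.2% of all genes. At an unadjusted p under 0.05 they were 8 and 11, and DESeq2 called 0 in either direction. From E16 to P6, 13 of 44 members (all 7 BBSome subunits, Arl6, Ift81, Ift20, Cc2d2a, Ahi1 and Nphp4) were called higher, against 13.2% of all genes, and 0 were called lower, against 11.7%. By adjusted p alone the same window had 24 members higher and 5 lower (Bbs10, Ift27, Ift74, Traf3ip1 and Kif3a), against 22.8% and 24.3% of all genes. At an unadjusted p 5 members were lower, and DESeq2 called 0 lower.

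Few members changed 2-fold within the window from P6 to P14 or that from P14 to P28, and P28 against P6 was not tested. Over both windows, stage means of Arl3 went from 53.9 CPM at P6 to 141 at P28, and those of Arl13b from 44.9 to 96.5. From P6 to P14 the kinesin gene Kif17 alone was called, higher at P14 (15.7% of all genes were called in either direction), with 9 members higher and 6 lower by adjusted p alone (18.8% and 19% of all genes). From P14 to P28 Bbs2 alone was called, higher at P28 (4.05% of all genes higher, 4.81% lower), with 10 higher and 4 lower by adjusted p alone (11.3% and 14.4%). Between the late embryonic and the mature retina, P28 against E16, 17 of 44 members were called higher, against 22.7% of all genes, and 0 lower, against 18.3%. By adjusted p alone 25 were higher and 8 lower, against 31.8% and 30.8% of all genes. At an unadjusted p 8 were lower, and DESeq2 called 18 higher and 0 lower. The windows share stages, so their values are not independent of each other.

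**Figure D2:**
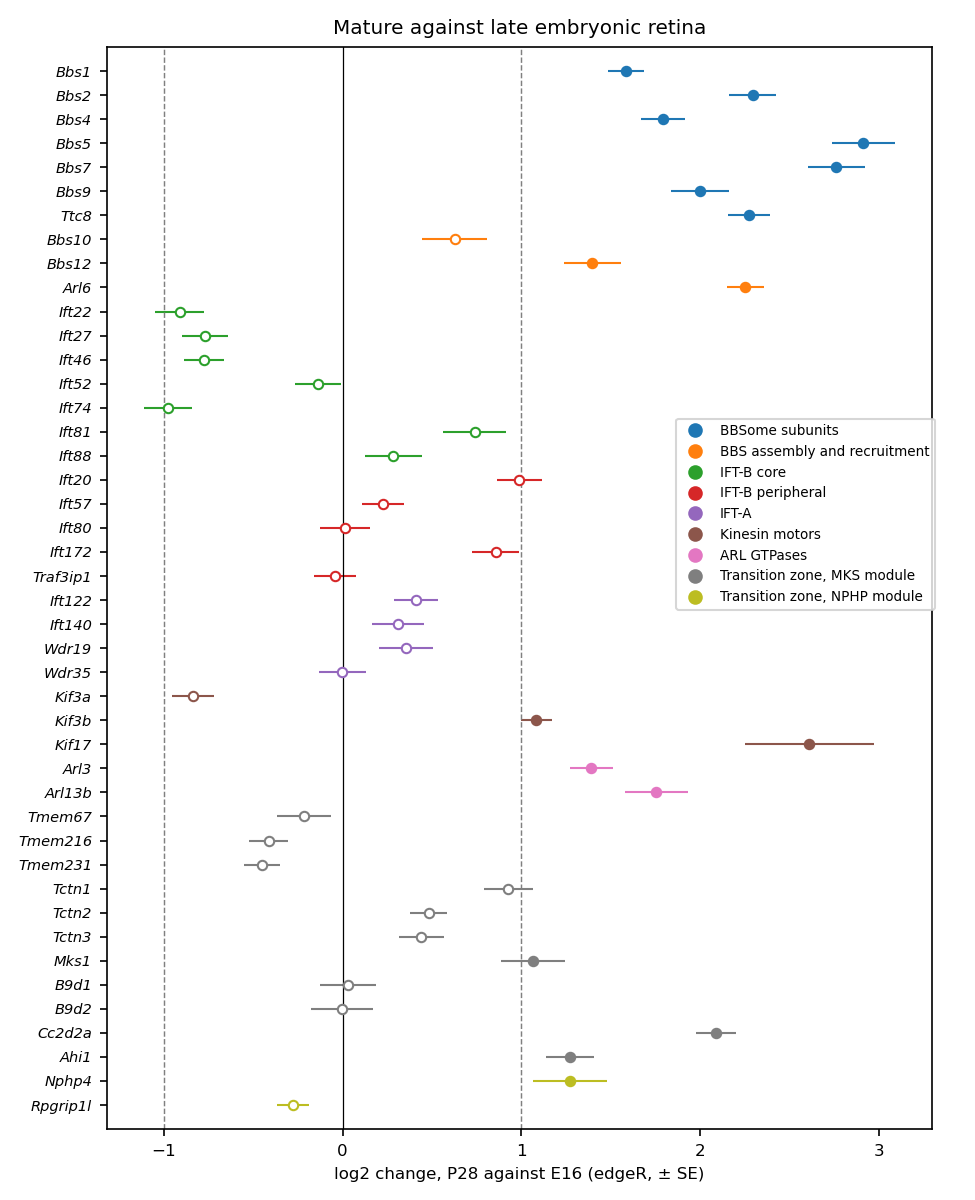
Log2 change of each of the 44 genes between E16 and P28 (edgeR estimate, bars are ± 1 SE, 2 libraries per age); filled points were called, open points were not, and dashed lines mark 2-fold. All 7 BBSome subunits lie to the right of the 2-fold line, and no IFT point is filled.

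The 7 BBSome subunits among the members moved together. Each was called higher at P6 than at E16 and at P28 than at E16, with log2 changes of 1.59 to 2.91 and a median of 2.28 in the longer window, where the median of all genes tested was 0.056. Over the same ages the summed level of 9 rod photoreceptor genes went from 18.8 and 17.8 CPM at E16 to 6340 and 6210 at P6 and 24700 and 27100 at P28, with 9 of 9 called higher in both windows. The part of the rod genes in the members' changes was not tested. The highest stage mean was at P10 for Bbs1, Bbs5, Bbs9 and Ttc8 and at P28 for Bbs2, Bbs4 and Bbs7. Bbip1 encodes a further BBSome subunit and is not among the 44 members. It read 54.1 and 59.7 CPM at E16, 67.1 and 69 at P6 and 44.2 and 50.7 at P28. Bbip1 was not called from E16 to P6 or from E16 to P28.

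Bbs5 (chromosome 2, 69647171 to 69667571, plus strand, GRCm38), whose product binds phosphoinositides, had the widest range of all 44 members, 11-fold. Its libraries read 10.9 and 8.85 CPM at E11, 6.79 and 10.8 at E12, 9 and 7.6 at E14 and 10.9 and 9.46 at E16. They read 17.9 and 18.1 at P0, 16 and 20.4 at P2, 38 and 38.1 at P4 and 56.6 and 49 at P6. The highest readings were 87.5 and 97.5 CPM at P10, followed by 67.2 and 73.5 at P14, 63.4 and 63.1 at P21 and 74.9 and 78.9 at P28. No embryonic library overlapped with a postnatal one. The log2 change was 2.37 (SE 0.173, adjusted p = 5.69e-09) from E16 to P6 and 2.91 (SE 0.175, adjusted p = 1.66e-10) from E16 to P28, by edgeR with Benjamini-Hochberg.

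Bbs7 (chromosome 3, 36573142 to 36613477, minus strand), a propeller subunit of the BBSome, read 27.4 and 28.8 CPM at E16, 108 and 109 at P6 and 184 and 198 at P28. Its log2 change from E16 to P28 was 2.76 (SE 0.161, adjusted p = 1.08e-10). Bbs9, another propeller subunit, read 25.1 and 36.8 CPM at E16, 137 and 148 at P6 and 119 and 128 at P28. It gained 2.21 log2 units from E16 to P6 (SE 0.163, adjusted p = 6.89e-09) and 2.0 from E16 to P28 (SE 0.162). In none of these genes did the E16 libraries overlap with those of P6 or P28.

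Bbs2, a propeller subunit that binds Bbs7, was the only member called between P14 and P28. Its log2 change from E16 to P28 was 2.30 (SE 0.131). It read 30.1 and 27.7 CPM at E16, 68.2 and 66.1 at P6, 96 and 105 at P10, 68.6 and 71.4 at P14, 121 and 116 at P21 and 137 and 147 at P28. The log2 change from P14 to P28 was 1.02 (SE 0.126, adjusted p = 1.99e-05), and the P14 libraries lay below those of P10 and of P21. This change sits at the 2-fold threshold: it was 0.986 without P14 replicate 1, 0.959 without P28 replicate 2, 0.996 with DESeq2 and 0.676 with summed transcript counts, and none of these is a call. The narrowest range among the subunits, 4.85-fold, was that of Bbs1, which binds Arl6. The Bbs1 libraries had 34 and 32 CPM at E11, 47.9 and 42 at E16, 95.8 and 96.7 at P6, 162 and 158 at P10 and 138 and 131 at P28, a log2 change of 1.59 from E16 to P28 (SE 0.0998). Bbs4, a subunit made of tetratricopeptide repeats, changed by 1.80 (SE 0.124), and Ttc8, also known as Bbs8, by 2.28 (SE 0.12).

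The genes that assemble the BBSome and bring it to membranes did not share a course. Arl6 (chromosome 16, 59612949 to 59639391, minus strand), the small GTPase that recruits the BBSome to membranes, had the largest gain of all members between E16 and P6. Its libraries read 27.3 and 29.6 CPM at E11, 25.6 and 26.1 at E12, 26.4 and 24.4 at E14, 29.4 and 30.9 at E16, 35.1 and 39.3 at P0 and 34.6 and 36.8 at P2. They then read 110 and 115 at P4, 199 and 176 at P6, 172 and 187 at P10, 145 and 155 at P14, 113 and 98.4 at P21 and 135 and 153 at P28. All libraries of P4 and later lay above all earlier ones, and P6 was the stage with the highest mean. The log2 change was 2.64 from E16 to P6 (SE 0.105, adjusted p = 3.41e-12) and 2.25 from E16 to P28 (SE 0.104).

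Bbs10 and Bbs12, chaperonin-like proteins needed to assemble the BBSome, were lowest at P2 and highest at P28. Bbs12 read 19 and 19.1 CPM at E16, 12.8 and 11.8 at P2 and 49.3 and 51.3 at P28, a log2 change of 1.40 from E16 to P28 (SE 0.158, called). Bbs10 had the narrowest range of the 10 BBS genes, 2.59-fold. It read 12.7 and 12.9 CPM at E11, 12.9 and 11.8 at E12, 9.93 and 9.2 at E14, 9.6 and 10.8 at E16, 4.92 and 7.57 at P0 and 6.16 and 5.99 at P2. It stayed at 6.36 to 7.1 CPM in the 4 libraries of P4 and P6, read 11.9 and 12.8 at P10, 10.8 and 8.75 at P14, 15 and 13.5 at P21 and 13.7 and 17.8 at P28. Bbs10 thus stood lower at P6 than at E16 (log2 change -0.58, SE 0.183, adjusted p = 0.015), when every BBSome subunit among the members stood higher. At P28 it was higher than at E16 by adjusted p alone (log2 change 0.63, SE 0.18, adjusted p = 0.00577).

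**Figure D3:**
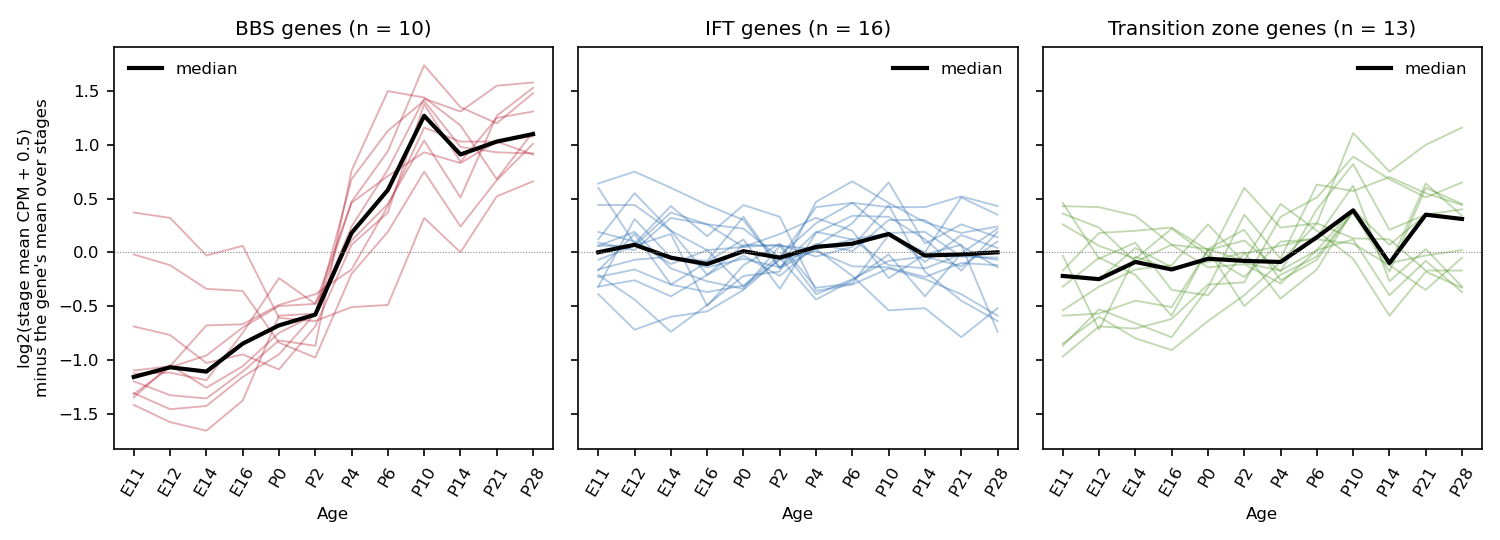
Course of each gene (thin lines) and the group median (black) over the 12 ages, as log2(stage mean CPM + 0.5) minus the gene's mean over stages, for BBS, IFT and transition zone genes. The BBS median goes from -1.16 at E11 to 1.27 at P10, whereas the IFT median stays between -0.11 and 0.17 and the transition zone median between -0.25 and 0.39.

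None of the 16 IFT genes was called between E16 and P28, whereas 22.7% of all genes were called higher and 18.3% lower. By adjusted p alone 4 IFT genes were higher and 4 lower, against 31.8% and 30.8% of all genes. At an unadjusted p under 0.05 edgeR had 6 higher and 4 lower, and DESeq2 called 1, Ift20, at a log2 change of 1.01. The 4 that were lower all encode proteins of the IFT-B core, the particle that binds tubulin cargo and the motor. Ift74, which with Ift81 forms the tubulin-binding module, had a log2 change of -0.98 (SE 0.135, adjusted p = 6.53e-06), just short of 2-fold. It was called lower without E16 replicate 1 (-1.07), without P28 replicate 2 (-1.04), with library size alone (-1.05), without a filter (-1.01) and with summed transcript counts (-1.12). Ift22, a small GTPase-like subunit, had -0.91 (SE 0.138), Ift46 -0.77 (SE 0.112) and Ift27, the GTPase that links IFT-B to the BBSome, -0.77 (SE 0.129). The median of the 7 IFT-B core genes was -0.77. Within the core, Ift81 was higher (0.74, SE 0.176, adjusted p = 0.00146), and Ift52 (-0.14, SE 0.129) and Ift88 (0.28, SE 0.159) did not pass.

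Ift74 (chromosome 4, 94614491 to 94693229, plus strand) had the widest range of the core, 2.95-fold. It read 105 and 81.9 CPM at E11, 103 and 101 at E12, 99.8 and 82.7 at E14, 76.7 and 87 at E16, 70.8 and 76.9 at P0, 53.6 and 54.3 at P2 and 65.4 and 57.4 at P4. It read 48.5 and 54.5 at P6, 41.3 and 41.2 at P10, 36.9 and 46.3 at P14, 32.8 and 36.1 at P21 and 39.9 and 43.3 at P28. Its partner Ift81 read 46.8 and 47.9 CPM at E16, 111 and 99.8 at P6 and 85.7 and 72.2 at P28, and was called higher at P6 (log2 change 1.16, SE 0.177; 0.997 and not called with summed transcript counts). All Ift74 libraries of P6 and later lay below all embryonic ones, whereas all Ift81 libraries of P6 and later lay above all embryonic ones. The proteins are known to act as a pair.

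The highest stage of the core genes differed from gene to gene. It was E11 for Ift27, E12 for Ift52 and Ift74, P4 for Ift46, P6 for Ift81 and Ift88 and P10 for Ift22. Ift88, whose reduction disrupts outer segments in mice, had the narrowest range of the core, 1.6-fold. It ran from 30.3 to 40.7 CPM in the 8 embryonic libraries, read 40.7 and 50 at P0, 30.6 and 35.3 at P2, 48.1 and 46.9 at P4, 56.4 and 49.4 at P6, 54.2 and 51 at P10, 37.9 and 53.2 at P14, 38.3 and 36 at P21 and 46.7 and 48.9 at P28. Both P28 libraries lay above all embryonic ones, whereas both P21 libraries lay within the embryonic span.

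Of the 5 peripheral IFT-B genes, Ift20 and Ift172 were higher at P28 than at E16. Ift20, which also sits at the Golgi and sorts membrane cargo for the cilium, read 22.7 and 21 CPM at E16, 44.2 and 45.2 at P6, 46.6 and 46.6 at P21 and 39.3 and 47.9 at P28. It was called higher at P6 (log2 change 1.03, SE 0.127), and its change of 0.99 from E16 to P28 (SE 0.127, adjusted p = 2.59e-06) was just under 2-fold. Without E16 replicate 2 the change to P6 was 0.973 and with summed transcript counts 0.968, which are not calls. Its 8 embryonic libraries lay between 17.9 and 24.9 CPM, the P0 and P2 libraries between 22.9 and 32.6, and all from P4 on between 39.3 and 47.9. Ift172, a large subunit that contacts IFT-A at the tip, was higher by 0.86 (SE 0.132), with its highest mean at P21 as for Ift20. Ift57 (0.23, SE 0.118, highest at P14), Ift80 (0.015, SE 0.14, highest at P0) and Traf3ip1, also known as Ift54 (-0.044, SE 0.117, highest at E14), did not pass.

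Ift57 had the narrowest range of the peripheral genes, 1.45-fold. Its libraries ran from 18.4 to 26.7 CPM before birth, from 17.2 to 26.7 at P0 and P2, from 23.2 to 25.3 at P4 and P6, from 24.2 to 28.8 at P10 and P14 and from 21.4 to 23.8 at P21 and P28. It was lower by adjusted p alone at E16 than at E11 (log2 change -0.34, SE 0.118, adjusted p = 0.0254) and higher at P6 than at E16 (0.39, SE 0.118, adjusted p = 0.0107). The E16 libraries, 18.4 and 20 CPM, lay below those of P6, 25.3 and 25.2.

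The IFT-A genes, whose complex drives the return of IFT particles and lets membrane proteins into the cilium, had small changes between E16 and P28. Of 4 genes, Ift122 was higher at P28 by adjusted p alone (log2 change 0.41, SE 0.123), and Ift140 (0.31, SE 0.144), Wdr19 (0.36, SE 0.152, adjusted p = 0.0504) and Wdr35 (-0.0016, SE 0.131) did not pass. Their highest stages were P6 (Ift122), E12 (Ift140) and P10 (Wdr19 and Wdr35). Wdr35 had the narrowest range of all 44 members, 1.38-fold, with libraries between 54.2 CPM in E11 replicate 2 and 86.3 CPM in P10 replicate 1. Its E11 libraries, the lowest stage, read 65.8 and 54.2 CPM and those of P28 65.3 and 55.9. Wdr19 had the widest range in IFT-A, 2.09-fold, from 46.9 and 31.7 CPM at E14 to 80.2 and 84.6 at P10, with 58.8 and 56.4 at P28.

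The anterograde motors differed among themselves. Kif3a and Kif3b form the heterotrimeric kinesin-2 with Kifap3, and Kif17 is a homodimeric kinesin of the same family. Kif17 (chromosome 4, 138250435 to 138301967, plus strand) was the least abundant member and read 0.511 to 0.888 CPM in the 8 embryonic libraries. It read 1.56 and 0.662 at P0, 1.48 and 1.38 at P2, 0.883 and 1.38 at P4, 1.24 and 0.924 at P6, 2.5 and 2.7 at P10, 4.73 and 4.32 at P14, 6.95 and 5.93 at P21 and 4.54 and 4.64 at P28. Each library from P10 on lay above all earlier ones. The log2 change was 2.06 from P6 to P14 (SE 0.352, adjusted p = 1.78e-04) and 2.61 from E16 to P28 (SE 0.363, adjusted p = 6.91e-06). Its highest stage was P21.

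Kif3b was called higher at P28 than at E16 (log2 change 1.08, SE 0.0849), with its highest mean at P10, while Kif3a was lower by adjusted p alone (-0.84, SE 0.118). Kif3a had the narrowest range of the motors, 2.48-fold. It read 128 and 95.9 CPM at E11, 125 and 131 at E12, 147 and 132 at E14, 138 and 146 at E16, 193 and 202 at P0, 184 and 165 at P2, 140 and 124 at P4 and 104 and 117 at P6. It then read 109 and 102 at P10, 98.4 and 107 at P14, 92.9 and 86.2 at P21 and 81 and 78.6 at P28. Kif3b read 70.8 and 67.3 CPM at E16 and 141 and 151 at P28. CPM carry no length scale, and per length Kif3a stood at 105 TPM, transcript levels scaled by length and library total, and Kif3b at 23.8 at E16, against 58.4 and 52.9 TPM at P28.

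Both ARL GTPase genes rose between E16 and P28. Arl3 releases lipidated cargo such as phosphodiesterase inside the cilium, and Arl13b, an Arl3 activator, marks the ciliary membrane. The Arl3 libraries had 70 and 88.8 CPM at E11, 54.3 and 52.8 at E16, 35.9 and 33.2 at P2, 71.1 and 84.6 at P10, 135 and 131 at P21 and 127 and 154 at P28. The Arl13b libraries had 24.6 and 21 CPM at E11, 27.4 and 29.7 at E16, 14.6 and 24.6 at P0, 46.3 and 43.5 at P6, 81.3 and 80.6 at P10, 72.5 and 64.6 at P14, 99.6 and 87.6 at P21 and 103 and 89.5 at P28. The log2 changes from E16 to P28 were 1.39 (SE 0.12) and 1.76 (SE 0.176), both called, and both genes were highest at P28.

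Between E16 and P28 the transition zone genes divided into those higher at P28, those lower and those that did not pass. Of 13 genes, 4 were called higher at P28 than at E16, against 22.7% of all genes, namely Cc2d2a (log2 change 2.09, SE 0.112), Ahi1 (1.27, SE 0.133), Nphp4 (1.27, SE 0.206) and Mks1 (1.07, SE 0.178). By adjusted p alone Tctn1 (0.93, SE 0.138), Tctn2 (0.48, SE 0.102) and Tctn3 (0.44, SE 0.125), the tectonic genes, were higher too. Lower by adjusted p alone were the membrane protein genes Tmem216 (-0.41, SE 0.108) and Tmem231 (-0.45, SE 0.101), and Rpgrip1l (-0.28, SE 0.0895), a scaffold of the zone. Tmem67 (-0.21, SE 0.151), B9d1 (0.030, SE 0.155) and B9d2 (-0.0050, SE 0.173) did not pass. The median of the 13 was 0.44. In the test over all 12 stages, B9d1 (range 2.08-fold), B9d2 (2.61-fold) and Tmem216 (2.11-fold) were nevertheless called. The change of Mks1 was under 2-fold without E16 replicate 2 (0.766), without P28 replicate 2 (0.999), with library size alone (0.99) and with summed transcript counts (0.849).

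Cc2d2a (chromosome 5, 43662346 to 43740972, plus strand), a large scaffold needed for outer segment formation, had the widest range of the zone, 4.26-fold. It read 41.2 and 32.4 CPM at E11, 44.6 and 43.5 at E12, 39 and 37.3 at E14, 36.2 and 34.2 at E16, 40.2 and 45.3 at P0, 48.9 and 52.3 at P2, 61.5 and 63.5 at P4 and 81.1 and 79.8 at P6. It then read 153 and 137 at P10, 119 and 106 at P14, 126 and 142 at P21 and 153 and 146 at P28. Every library from P2 on lay above every embryonic one. The narrowest range of the MKS module, 1.8-fold, was that of Tmem231, whose libraries had 35.4 and 30.7 CPM at E11, 26.2 and 24.9 at E16, 24.5 and 25 at P6, 19.8 and 16.9 at P14 and 19.5 and 17.9 at P28.

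Nphp4 (chromosome 4, 152476706 to 152563183, plus strand) and Rpgrip1l are the members of the NPHP module. Nphp4 read 9.69 and 8.78 CPM at E11, 11.8 and 11.9 at E12, 11.9 and 9.62 at E14, 11 and 8.59 at E16, 13.6 and 13.7 at P0, 18.5 and 25.9 at P2, 15 and 18.1 at P4 and 27.3 and 26.6 at P6. It stayed between 21.3 and 35.3 CPM afterwards, both of these values in the libraries of P14. Its deposited gene estimate was 0.684 to 1.96 times the sum of its transcript estimates over the 24 libraries, a spread of 2.87-fold, so its level depends on how transcripts were summed. With summed transcript counts its log2 change from E16 to P6 was 0.872, which is not a call, and that to P28 was 1.72, a call. Rpgrip1l stayed between 30.8 CPM at P21 and 49.8 CPM at E11, a range of stage means of 1.53-fold against 3.07-fold for Nphp4.

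Many of the BBS and transition zone genes among the members shared a high reading at P10, the age when outer segments elongate. The pattern was chosen after the values were seen and is described without a test. The highest stage mean was at P10 in 13 of 44 members (29.5%), against 5.36% of all genes tested. Outside the members, it was at P10 in 0 of 7 other BBS genes, 7 of 16 other transition zone genes and 4 of 15 other IFT and motor genes. The highest stage was P10 for Tmem67, Tctn1, Tctn3, B9d1 and Ahi1 in the transition zone, P21 for Tctn2 and Mks1, P28 for Cc2d2a, P4 for Tmem216, P2 for B9d2, P14 for Nphp4 and E11 for Tmem231 and Rpgrip1l. Both P10 libraries lay above all libraries of P6 and P14 in 22 of 44 members (50%), against 11.7% of all genes. These were 8 of 10 BBS genes, 9 of 13 transition zone genes, 4 of 16 IFT genes, 1 of 2 ARL genes and 0 of 3 kinesin genes.

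A dip followed at P14. In 20 of 44 members (45.5%) both P14 libraries lay below all libraries of P10 and P21, against 15.2% of all genes. Among these were Ttc8 with 153 and 156 CPM at P10, 115 and 97.3 at P14 and 144 and 138 at P21, and Tctn2 with 40.5 and 45, then 28.8 and 30.9, then 52.8 and 48.6. B9d1 read 17.5 and 18.8 CPM at P10, 9.53 and 9.62 at P14 and 11.9 and 12 at P21. The sum of 10 pigment epithelium genes was 188 and 242 CPM at P10, 159 and 136 at P14 and 32.3 and 56.8 at P21, and its part in the pattern was not tested.

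Per length, the complexes changed places. At E16 the median BBSome subunit stood at 26.9 and 32.1 TPM in the 2 libraries and the median IFT-B core gene at 55.4 and 56.5 TPM. At P28 the median BBSome subunit stood at 159 and 167 TPM and the IFT-B core gene at 42.5 and 46.1. The ratio of these medians was 0.382 and 0.316 at E11, 0.485 and 0.567 at E16, 0.939 and 1.07 at P4, 1.63 and 1.48 at P6, 3.19 and 3.16 at P10 and 3.74 and 3.62 at P28. The medians of IFT-A and the transition zone genes were at most 48.6 TPM in every library. With 2 libraries a stage, an exact permutation test between stages cannot reach a p under 0.05, so the ratios are given as values.

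**Figure D4:**
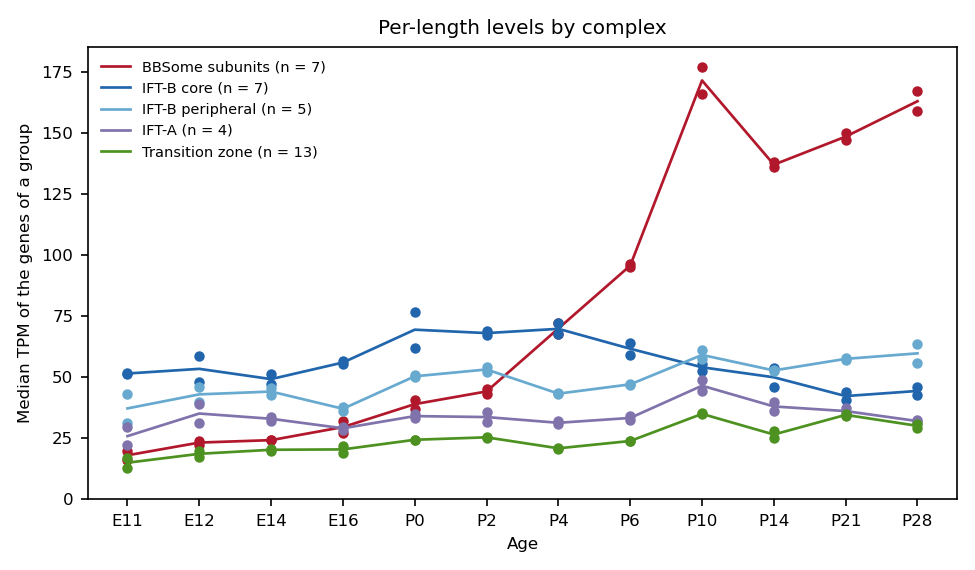
Median level of the genes of each complex in TPM (linear axis from 0), by age; points are the 2 libraries of an age and lines join their means. The BBSome line meets the IFT-B core line at P4 and reaches 166 to 177 TPM at P10, whereas no point of the other complexes exceeds 76.7 TPM.

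Within a complex whose subunits are thought to occur in equal number, RNA levels were not equal. At P28 the BBSome subunits among the members ran from 50.9 ± 2.58 TPM (SD, n = 2) for Bbs1 to 191 ± 2.97 for Ttc8. That was a spread of 3.76-fold, against 2.54-fold at E16. The IFT-B core ran from 22.9 ± 0.0306 TPM for Ift27 to 93.7 ± 1.39 for Ift46 at P28, a spread of 4.09-fold. Arl6, at 223 ± 18 TPM, stood above every BBSome subunit among the members at P28. Bbs10, at 11 ± 1.89 TPM, stood below every one. Among the members of the BBSome and of the IFT-B and IFT-A particles, the 4 IFT-A genes were the most even. Their spread at P28 was 1.87-fold, between Wdr19 (26.2 ± 0.885) and Ift122 (49 ± 1.3). The BBSome and the IFT-B core had 7 genes each, and a spread over fewer genes tends to be smaller. IFT-A genes outside the members were not included.

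Transcript choice changed in Ttc8 as well as its level. The share of each transcript in the estimated counts of its gene was compared between E16 and P28 with edgeR's diffSpliceDGE, for 213 transcripts of 37 members. A transcript was called at an adjusted p under 0.05 and a share difference of at least 10 percentage points. Of the 213, 3 were called (1.41%), against 1.74% of all 56746 transcripts tested. By adjusted p alone there were 8, against 3.73% of all transcripts. Ttc8-001 went from 71.7% and 70.3% of the Ttc8 counts at E16 to 9.98% and 7.39% at P28 (adjusted p = 0.00142), and Ttc8-002 from 4.94% and 12% to 55.3% and 59.6% (adjusted p = 5.9e-04). By the same edgeR test Ttc8-002 did not pass without E16 replicate 1 (adjusted p = 0.111), nor Ttc8-001 without P28 replicate 2 (adjusted p = 0.0861), with share differences of 45.5 and -61 percentage points.

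The exchange between these transcripts turns on a short exon, shown here because it is the sequence that distinguishes them within the coding region. Exon 2 of Ttc8-002, at chr12:98937120-98937149 on the plus strand of GRCm38, lies wholly in the coding sequence and is absent from Ttc8-001, whose exons 1 and 2 flank it. Its 30 bases keep the reading frame, and an exon of this kind in Ttc8 is known to be used by photoreceptors. It was read from the GENCODE transcript sequence.
Ttc8 exon 2: gaaccagctcctgatttgccagtgtctcag
Apart from this exon, the transcripts differ only in the outer ends of their first and last exons.

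Inclusion of the exon followed the age of the retina. Of the counts of transcripts that hold the exon and of Ttc8-001 together, the exon-holding share was 0% and 5.94% at E11, 0% and 6.31% at E12, 0% and 4.35% at E14 and 6.45% and 15.4% at E16. It was 25.1% and 9.28% at P0, 52.6% and 29% at P2, 54.2% and 64.3% at P4 and 68% and 69.4% at P6. From P10 to P28 it lay between 82.3% and 89.2%. The libraries of P0 and P2 differed most within an age, and the stages from P10 on did not separate beyond that spread. The shares rest on transcript estimates, which divide reads that both transcripts could have produced, and a share of 0% is such an estimate, not a count of 0 reads. The gene had 788 to 4701 estimated counts in a library.

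**Figure D5:**
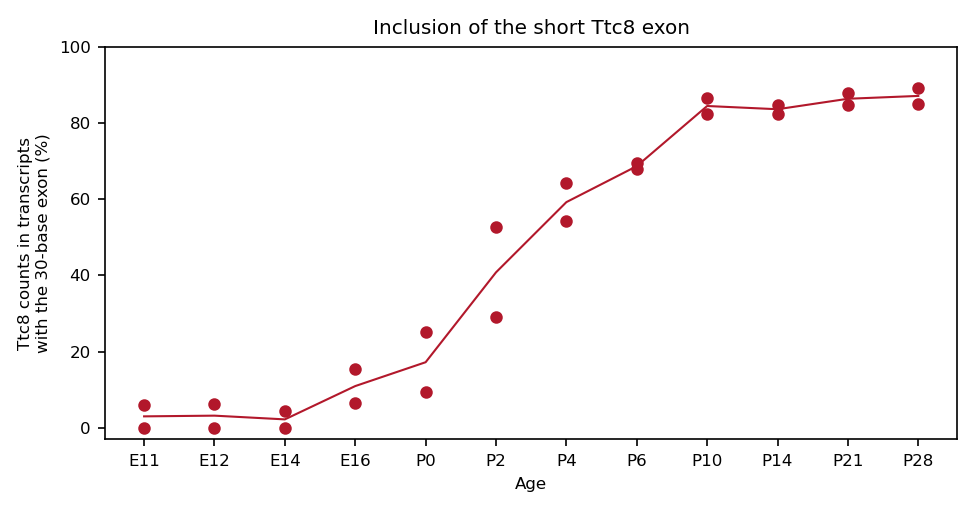
Share (%) of Ttc8 estimated counts in transcripts that hold the 30-base exon, out of those and Ttc8-001, by age; points are libraries and the line joins stage means. The share is at most 15.4% before birth and 82.3% to 89.2% from P10 on.

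The third called transcript was Ift20-005, a retained-intron transcript, which took 16.3% and 5.23% of Ift20 counts at E16 and 0% in both P28 libraries (adjusted p = 1.52e-05). Without E16 replicate 1 the difference was -5.23 percentage points, under the 10 needed for a call. It also read 0% in both libraries of P2 and P21 and 10.4% and 10.8% at P14, so it did not follow age in one direction. In Wdr35 and Arl6, shares moved by 25.4 to 28.9 percentage points between transcripts, and none passed the adjusted p. Both genes were picked out with these values in view.

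RFX transcription factors drive ciliary genes by binding the X-box, a paired motif, and promoters of the members were searched for it. RefSeq promoter windows (GRCm38.p6, from 250 bases before to 50 after a gene's start) were found for 40 of 44 members. The strict form was GTTNCC followed by GGNAAC with 0 to 3 bases between, and the loose form GTNNCC followed by GGNNAC, on both strands. Each form reads the same on the other strand, and every strict match is also a loose one. The strict form was in 6 of 40 members (15%), against 0.936% of 27025 genes, and the loose form in 14 of 40 (35%), against 4.38%. The single half-site GTTGCC was in 22 of 40 (55%), against 14%.

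A loose match was in 8 of 12 transition zone genes with a window, 3 of 10 BBS genes, 3 of 13 IFT genes and 0 of 5 motor and ARL genes. Of the 6 strict matches, those before the starts of Bbs7, Mks1 and Tctn3 are printed as examples of the pattern, in lower case with the matching letters in capitals and flanks of up to 30 bases, on the strand of the gene.
Bbs7 (chr3:36613467-36613540, gene on the minus strand): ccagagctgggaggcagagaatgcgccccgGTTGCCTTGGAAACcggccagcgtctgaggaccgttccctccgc
Mks1 (chr11:87853161-87853214, gene on the plus strand): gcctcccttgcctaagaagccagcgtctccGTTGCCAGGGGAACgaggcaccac
Tctn3 (chr19:40612329-40612401, gene on the minus strand): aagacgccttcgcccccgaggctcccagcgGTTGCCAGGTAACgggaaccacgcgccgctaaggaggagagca
These genes had log2 changes from E16 to P28 of 2.76 (Bbs7), 1.07 (Mks1) and 0.44 (Tctn3), so a strict match stood before genes with large and with small changes. Ift57 also had a strict match before its start, not printed here, and its change of 0.23 did not pass the adjusted p. The strict matches of Tctn1 (0.93) and Ahi1 (1.27) lay after the start. A match is a run of letters and does not show binding.

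Other genes of the same machines, listed by function, mostly lacked a 2-fold change between E16 and P28. The IFT, BBS, transition zone and cargo lists held 45 related genes. In the test over all 12 stages, 29 of the 45 were called (64.4%), against 77.3% of all genes tested. At P28, 7 of the 45 were called higher than at E16 (22.7% of all genes) and 0 lower (18.3%). The named ones were Wdr60 (log2 change 1.65, SE 0.123), a dynein-2 chain, Ttc30b (1.35, SE 0.155), an IFT-B gene, Rpgrip1 (4.12, SE 0.217) and Cep290 (2.28, SE 0.16), both of the connecting cilium, and Cys1 (5.09, SE 0.538) and Unc119 (4.49, SE 0.15), genes of lipidated cargo. Pde6d, also of cargo transport, was the seventh (1.16, SE 0.119). At an unadjusted p edgeR had 16 of the 45 higher and 12 lower, and DESeq2 called 7 higher and 0 lower. None of 7 other BBS genes was called by edgeR or DESeq2, 3 being higher and 3 lower at an unadjusted p, among them the chaperonin gene Mkks (0.66, SE 0.192) and Lztfl1 (0.71, SE 0.108), a regulator of BBSome traffic.

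Among 9 cilium transcription factors tested, 3 were called higher at P28 (Rfx1 by 1.88, Rfx5 by 1.85 and Rfx4 by 3.42 log2 units) and 3 lower (Rfx2 by -1.49, Rfx7 by -1.09 and Myb by -5.98). Of all genes tested, 22.7% were called higher and 18.3% lower. By adjusted p alone 3 of the factors were higher and 4 lower, against 31.8% and 30.8% of all genes. Rfx3, which was not called, read 139 and 126 CPM at E16 and 75.1 and 74.4 at P28. Rfx4 was near 0 at both ages (0.0301 and 0 CPM at E16, 0.23 and 0.174 at P28, SE 1.45, adjusted p = 0.0494), and DESeq2 did not call it. Myb, which promotes multiciliated cell formation and is also active in cycling cells, read 359 and 379 CPM at E16 and 5.91 and 5.77 at P28. Foxj1, the driver of motile cilia, did not pass (0.36, SE 0.311).

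The authors' deposited table groups 12718 genes into 36 clusters and holds 21 of the 44 members (47.7%), against 58.2% of the genes tested here. By the authors' deposited table, 7 members fell in cluster 18 (Bbs2, Bbs5, Bbs9, Arl6, Tctn1, Ahi1 and Nphp4) and 6 in cluster 22 (Bbs7, Ttc8, Bbs12, Kif17, Arl13b and Cc2d2a). These clusters hold 470 and 860 of the 12718 genes, and they were made from this same series. All 10 BBS genes were in the authors' deposited table, against 3 of 16 IFT genes (Ift27, Ift74 and Wdr19).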

How the data were processed

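RNA from 24 retina libraries, 2 at each of 12 ages, was sequenced. The authors deposited estimated counts per gene and per transcript, not scaled to a common depth. kallisto 0.42.4, edgeR 3.13.9 and GRCm38.p5 are named, without roles, per the submitters' processing notes. The sources used here do not give the rule by which transcripts were added up to genes. The authors' deposited table of clusters also holds log2 changes against E11 and adjusted p-values, of which only the clusters and membership are used here.

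Gene counts were rounded, filtered (filterByExpr, minimum count 10), scaled by TMM and fitted with edgeR 4.0.16 in R 4.3.3 (quasi-likelihood, 1 coefficient per age, 12 residual degrees of freedom). P-values were Benjamini-Hochberg adjusted over all genes tested. A call needed an adjusted p under 0.05 and a 2-fold change. The SE of a log2 change is its size divided by the square root of F. CPM use the TMM library sizes, and levels on a log scale are log2(CPM + 0.5). TPM were computed from the deposited transcript counts and annotated lengths. Transcript shares were tested with diffSpliceDGE on rounded counts, and the tests were tried on simulated data. Totals of 24567532 to 35898879 estimated counts set the counting precision. Replicates of an age differed by more than counting noise (chi-square per gene of 9.73 to 64.4), so no library was merged.

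The members and gene lists were chosen with earlier results of these data known. All members are named with their highest stage and P28 against E16 change. Up to 3 members called in each direction of a window, and the widest and narrowest range of each group, are given by library. Up to 2 called genes of each related list and up to 6 called transcripts are named by rule. Pde6d, Rfx1, Rfx2, Rfx5 and Rfx7, named to complete a count of calls, and Bbip1, Mkks, Lztfl1, Rfx3 and Foxj1 were added with their values known. Alternatives were other scalings, filters, call rules and tools (DESeq2 1.42.0, and limma 3.58.1 for transcripts), summed transcript counts, fits of the compared ages alone, a replicate block and leaving out single libraries. 1 gene of the rod marker list is not reported here, and the list's sum leaves it out.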

Additional observations from a re-analysis of the deposited data

How the results depend on the processing

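Among the results called in the main fit, no direction reversed under any alternative run. Directions of members not called were not compared. By adjusted p alone the members called were 8 higher and 8 lower for E16 against E11, 24 and 5 for P6 against E16, 9 and 6 for P14 against P6, 10 and 4 for P28 against P14, and 8 lower for P28 against E16. A test against 1.5-fold (glmTreat) gave 2 higher and 1 lower for P14 against P6, and 4 lower for P28 against E16. The 1 gene called for P28 against P14, Bbs2, became 0 with RLE scaling, library size alone, no filter, summed transcript counts and DESeq2, and 0 to 1 when single libraries were left out. The 0 members lower for P28 against E16 became 1, Ift74, with library size alone, no filter and summed transcript counts, and 0 to 1 without single libraries. The 3 member transcripts became 8 by adjusted p alone, 23 with limma voom, 6 with only E16 and P28 fitted and 6 among transcripts with a mean of at least 50 counts, and 2 to 4 without single libraries. The cause of these differences was not tested. The 32 members called over the stages were 31 to 33, and the 17 higher at P28 than at E16 were 16 to 19, without single libraries. Without the 3 libraries with high lens sums, an alternative chosen after seeing the data, these counts were 34 and 17, and 0 were called for E16 against E11. Where an age kept 1 library, it was assumed to vary like the other ages.

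Same-numbered libraries did not deviate together (correlations from -0.0568 to 0.127, median 0.00416, over 0.1 in 2 of 66 pairs of ages). These values show no pairing by number, but they cannot exclude one. With the replicate number as a block, the counts were 32 over the stages, 13 higher for P6 against E16, 17 for P28 against E16, 1 for P14 against P6, 1 for P28 against P14 and 3 transcripts, equal to those without it. With library size alone the median change of all genes for E16 against E11 moved from 0.0055 to 0.14. Members near 1 CPM, such as Kif17 before P10, rest on few counts.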
